A study of Quercus robur with 165 samples.

Results

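Long and medium taproots of pedunculate oak (*Quercus robur*) seedlings were compared by RNA-seq in their meristematic zone, the tip of the taproot that holds the dividing cells. The comparison comprised 18 of the 165 libraries of the series, all from Dataset 2, in 6 groups of 3 libraries. The tested groups were long taproots of normal morphology from seedlings in containers (K_dl_NN_kon), from seedlings moved from a container to a rhizotron (K_dl_NN_krh, called transplanted here) and from seedlings in rhizotrons (K_dl_NN_rh). Each was set against medium taproots of the same cultivation (K_sr_NN_kon, K_sr_NN_krh and K_sr_NN_rh). A rhizotron is a flat chamber with transparent walls in which the taproot is followed as it grows, whereas roots of container seedlings were air-pruned at the bottom. All 6 groups were normal, active roots of seedlings from acorns of a single lot, with no treatment other than the cultivation, and the taproots were assigned to a length class when they were harvested. Transplanted seedlings spent their first year in a container and were harvested weeks after the transfer, so that their age differed from that of the other seedlings. According to the paper, the container and rhizotron seedlings grew from acorns of the lot that were older when sown. Age and acorn storage thus differed along with the cultivation and cannot be told apart from it. Libraries were numbered as biological replicates, but the labels do not say whether they came from separate seedlings, and p-values measure only the spread between these libraries.

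A taproot elongates because cells divide in the meristem at its tip and then expand in the elongation zone above it. Auxin, which PIN carriers move through the tip, positions and maintains the meristem, gibberellins promote cell division and expansion, and ethylene restrains expansion, as was worked out mainly in *Arabidopsis*. In bulk samples of a root tip, fewer cells of a type and less RNA per cell cannot be told apart.

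Expected counts, the number of reads that the authors assigned to each gene, summed to between 25817413 and 33341476 per library (median 29859048), and 21707 to 23577 genes had at least 10 counts in a library. The 3 most abundant genes held 1.85% to 4.62% of a library. Levels are given as TPM, the authors' measure of transcript abundance relative to the length of the gene and the depth of the library. The carrier gene *PIN2*, whose *Arabidopsis* counterpart is expressed in the root tip, had 26.3 to 67.7 TPM in the 18 libraries (median 43.6). It had 0 to 2.88 TPM (median 1.09) in the 15 libraries from elongation zones of normal taproots in Dataset 2 and 8.16 to 37.1 TPM (median 21.3) in the 15 libraries from lateral roots, so that the 18 libraries were apart from elongation zones in this gene and overlapped with lateral roots.

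The libraries of a group were not equally far apart. Their distance was expressed as a coefficient of variation from which the share due to counting was removed, over 5147 genes with a mean count between 1000 and 10000. It ranged from 0.0166 to 0.226 (median 0.0777) in the 18 pairs of libraries of the same group and from 0.127 to 0.292 (median 0.211) in the 135 pairs of different groups. In 8 pairs of the same group the distance was under 0.05, and their observed variance was 1.45 to 6.16 times that of counting alone. These near-identical pairs covered all 3 long container libraries, all 3 medium transplanted libraries, and replicates 2 and 3 of both rhizotron groups. The long transplanted libraries (0.189 to 0.206) and the medium container libraries (0.170 to 0.226) contained none. They were as far apart as a long and a medium library of 1 cultivation, between which the distance was 0.127 to 0.229 (median 0.192). Variance beyond counting noise does not show that near-identical libraries came from separate roots. The main tests kept 3 libraries per group, and each comparison was repeated with near-identical libraries summed, which left 12 units. Where the libraries of a group are not independent, the p-values of the main tests are too small. The groups that were tightest in one arm of a pair were matched with widely spread groups in the other arm in containers and in transplanted seedlings.

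**Figure D1:**
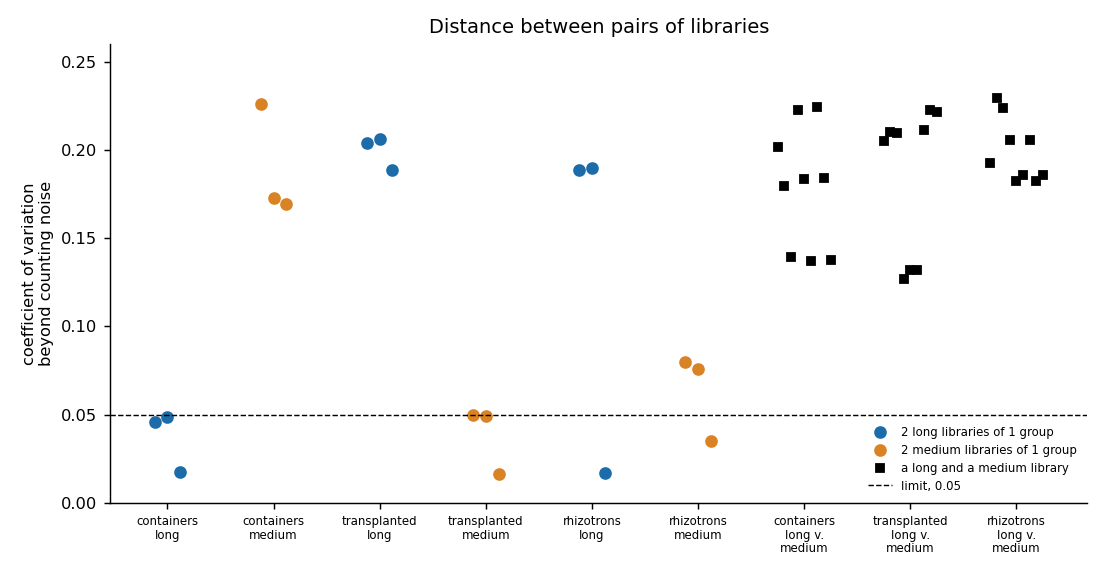
Distance between 2 libraries (y axis, coefficient of variation beyond counting noise) for the 3 pairs of libraries within each of the 6 groups, and for the 9 pairs of a long and a medium library of each cultivation. Circles are pairs of the same group, squares are pairs of a long and a medium library, and the dashed line is the limit of 0.05, under which 8 pairs of the same group lay.

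The genes of the series carry assembly identifiers (MSTRG), and only the 11 genes of the study's RT-qPCR primer list are paired with a gene name in the sources used here. They were therefore described first. The primer pairs below are those listed with 3 of these identifiers, and they were not matched to transcript sequences here. They are shown for the gene that passed over the 3 pairs, the one that differed most in a single cultivation and the carrier of the root tip.
*G3OX* forward: cggacccgttatcgtttatc
*G3OX* reverse: ttttgagagtggagagatttgga
*GERL1* forward: ccaaccctcccattaatcct
*GERL1* reverse: ctcttcaaccacatttttgtcg
*PIN2* forward: tcttcacaccagaccagtgc
*PIN2* reverse: ggaaggaaagtaatggaactgc

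*G3OX* (MSTRG.22681) was lower in long taproots, and it was the only one of the 11 genes that passed the test over the 3 pairs. It encodes gibberellin 3-beta-dioxygenase, the enzyme that makes bioactive gibberellins from their precursors. In containers, *G3OX* had 2.24, 2.3 and 2.63 TPM in long taproots, against 3.62, 12.01 and 5.12 TPM in medium taproots. In transplanted seedlings it had 0.29, 0.77 and 1.34 TPM in long taproots and 1.15, 1.15 and 1.70 TPM in medium taproots, and in rhizotrons 3.03, 4.43 and 3.66 TPM in long taproots and 8.19, 6.90 and 7.66 TPM in medium taproots. The groups overlapped in transplanted seedlings, by a single long library, and were apart in the other 2 cultivations. The log2 fold change of long over medium over the 3 pairs was -1.13 ± 0.25 (SE), with an adjusted p of 0.0222 in edgeR's quasi-likelihood test with Benjamini-Hochberg adjustment over all genes. It was -1.60 ± 0.39 in containers, -0.61 ± 0.46 in transplanted seedlings and -1.07 ± 0.38 in rhizotrons, with no detectable dependence on the cultivation (adjusted p = 0.434). The adjusted p was 0.0502 without replicate 1 of long container taproots and 0.686 with near-identical libraries summed (unadjusted p = 0.0162).

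*GERL1* (MSTRG.23367), a germin-like protein of a family of extracellular, cell wall-associated proteins, differed most in a single cultivation. In rhizotrons it had 379.8, 348.9 and 337.5 TPM in long taproots, against 20.3, 20.6 and 20.3 TPM in medium taproots. The log2 fold change there was 4.21 ± 0.42 (adjusted p = 1.95e-05), and it was one of the genes that passed with near-identical libraries summed (adjusted p = 0.0405). In transplanted seedlings the long libraries were spread over 832.8, 181.4 and 662.6 TPM around the medium libraries with 270.0, 267.3 and 273.6 TPM, and in containers long libraries had 206.8, 215.3 and 213.0 TPM and medium libraries 280.8, 404.5 and 200.2 TPM. Neither of these differences passed the test (adjusted p = 0.0597 and 0.391), nor did the 3 pairs together (log2 fold change 1.48 ± 0.59, adjusted p = 0.178). The difference depended on the cultivation (adjusted p = 0.000132, and 0.209 with near-identical libraries summed).

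Of the genes of ethylene synthesis, *ACO5* (MSTRG.13653) and *ACO1* (MSTRG.24659) encode aminocyclopropane carboxylate oxidases, which catalyse the last step. *ACO5* had 36.8, 34.1 and 32.4 TPM in long container taproots and 6.73, 25.3 and 10.5 TPM in medium ones, and its log2 fold change was 1.22 ± 0.33 (adjusted p = 0.0470). Over the 3 pairs, *ACO5* averaged 42.4 ± 11.8 TPM in long taproots and 28.1 ± 11.6 TPM in medium taproots (SD, n = 9 each), and the log2 fold change of 0.70 ± 0.21 did not pass (adjusted p = 0.0701). *ACO1* was lower in long taproots of transplanted seedlings, with 50.6, 36.4 and 25.7 TPM, against 66.7, 73.3 and 73.9 TPM in medium taproots (log2 fold change -0.89 ± 0.16, adjusted p = 0.00517). Its log2 fold changes of 0.22 ± 0.16 in containers and 0.10 ± 0.16 in rhizotrons were on the other side of 0, and the dependence on cultivation passed the test (adjusted p = 0.00624). With near-identical libraries summed, neither *ACO5* in containers nor *ACO1* in transplanted seedlings passed (adjusted p = 1.00 and 0.821).

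*PIN2* (MSTRG.5844), the auxin efflux carrier, was higher in long taproots of rhizotrons, with 45.5, 58.1 and 56.5 TPM, against 36.9, 34.8 and 34.3 TPM in medium taproots. Its log2 fold change was 0.57 ± 0.12 in rhizotrons (adjusted p = 0.00448, and 0.281 with near-identical libraries summed), 0.30 ± 0.12 in transplanted seedlings and -0.09 ± 0.12 in containers, and over the 3 pairs 0.26 ± 0.09 (adjusted p = 0.140). *CERD* (MSTRG.1646), a neutral ceramidase that cleaves ceramides in sphingolipid turnover, was lower in the long taproots of rhizotrons, with 50.9, 54.5 and 55.1 TPM, against 67.5, 70.2 and 68.2 TPM in medium taproots. This log2 fold change of -0.37 ± 0.08 (adjusted p = 0.00416, and 0.302 summed) was small and did not carry to the 3 pairs (-0.12 ± 0.06, adjusted p = 0.313). *PCC13* (MSTRG.32141), a desiccation-related protein, had 40.1, 40.5 and 42.6 TPM in long container taproots, against 13.3, 17.97 and 12.3 TPM in medium container taproots. In rhizotrons the order was the opposite, with 3.9, 2.5 and 2.45 TPM in long and 5.96, 6.44 and 7.09 TPM in medium taproots. Neither difference passed alone (adjusted p = 0.0536 and 0.102), whereas the dependence on cultivation did (adjusted p = 0.0141).

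*WRKY* (MSTRG.4799), a transcription factor of the WRKY family, and *GST* (MSTRG.31078), a glutathione S-transferase of detoxification, had log2 fold changes of 0.00 ± 0.20 and 0.06 ± 0.14 over the 3 pairs. *GST* averaged 457 ± 94.9 TPM in long taproots and 440 ± 73.0 TPM in medium taproots (SD, n = 9 each), and no single pair passed. *WRKY* also passed in no single pair, although its dependence on cultivation did (adjusted p = 0.0379). The reference genes of the RT-qPCR, *UBQ* (ubiquitin, MSTRG.26207) and *EF* (elongation factor, MSTRG.28793), had log2 fold changes of -0.03 ± 0.08 and 0.14 ± 0.11 (adjusted p = 0.900 and 0.552). *UBQ* averaged 157 ± 15.1 TPM in long and 159.9 ± 11 TPM in medium taproots, and *EF* averaged 3292 ± 384 TPM in long and 2974 ± 216 TPM in medium taproots (SD, n = 9 each).

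**Figure D2:**
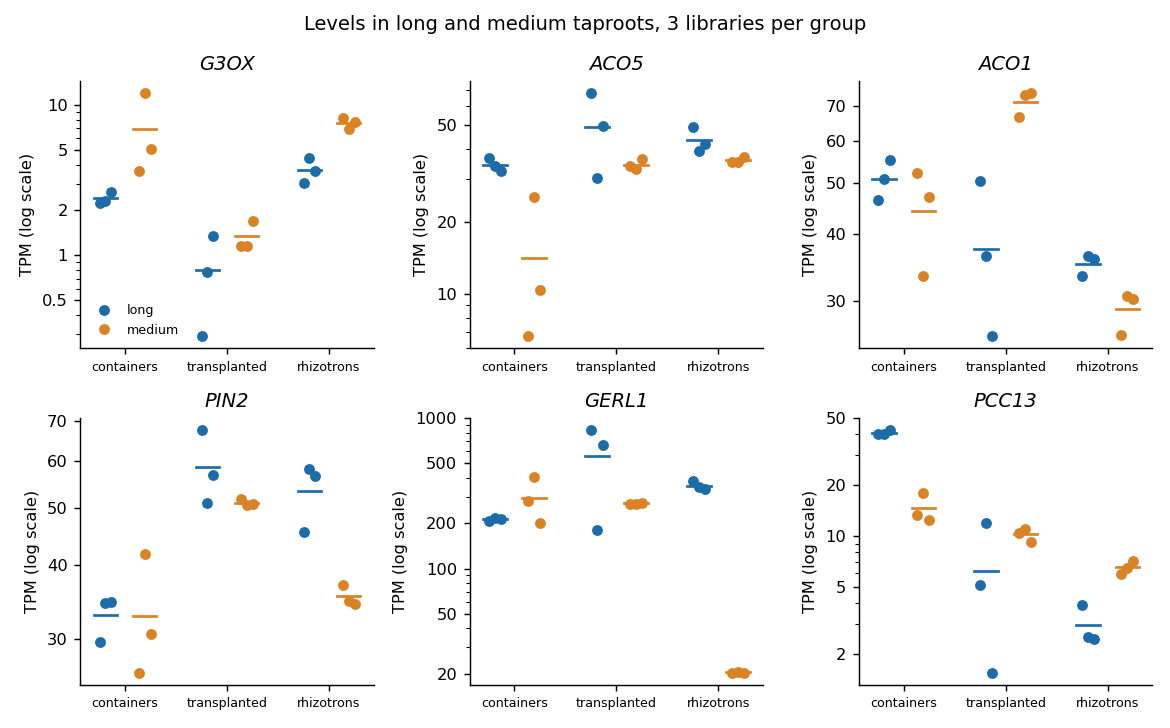
Levels of 6 RT-qPCR genes (y axis, TPM on a log scale) in long (blue) and medium (orange) taproots of each cultivation. Points are libraries and lines are means of 3 libraries. *GERL1* in rhizotrons has all long libraries above 337 TPM and all medium libraries near 20 TPM, and *G3OX* lies lower in long taproots in each cultivation.

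Across the transcriptome, 788 of 24904 genes tested differed between long and medium taproots over the 3 pairs, which was 3.16% of the genes. Of these, 413 were higher and 375 lower in long taproots. In 750 of them (95.2%) the difference had the same direction in all 3 cultivations, which the test of a common difference favours, and the share was 22.9% over all genes tested. The median absolute log2 fold change of the 788 genes was 0.68, and 163 genes were at least 2-fold higher and 93 at least 2-fold lower. Every long library was above every medium library of its own cultivation, in all 3 cultivations, for 107 genes (0.43% of those tested), of which 77 were among the 413. For 81 genes (0.325%) every long library was below, and 63 of these were among the 375. With near-identical libraries summed into 12 units, 0 of 26170 genes passed edgeR's test, while 1707 (6.52%) had an unadjusted p under 0.05 and the smallest adjusted p was 0.0804. Of the 788 genes, 782 had an unadjusted p under 0.05 in the summed data. These data hold the same reads that selected the 788 genes, so that this is no independent support. None of the 788 calls thus held when near-identical libraries were summed. The summed fit has fewer units, its own estimate of the spread and another set of genes past the filter. The part of each in the loss of calls was not tested.

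**Figure D3:**
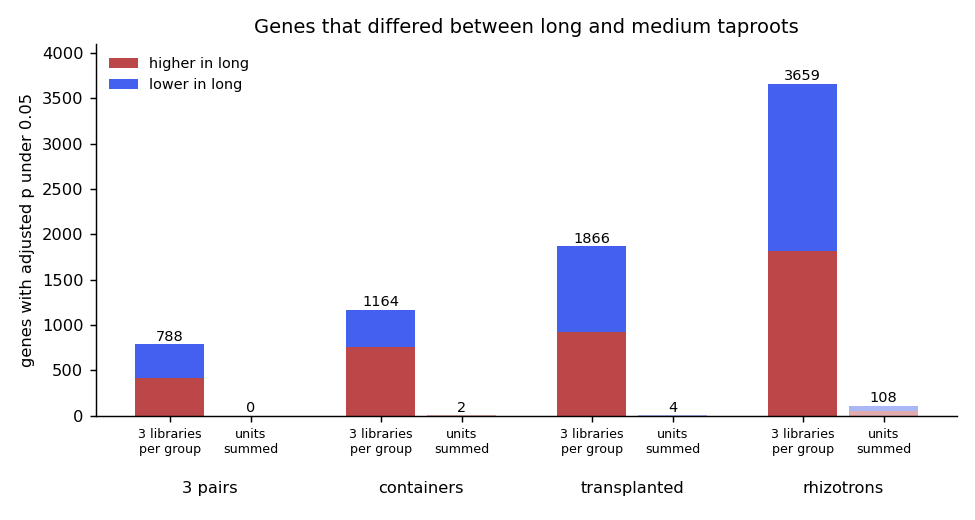
Number of genes with an adjusted p under 0.05 (y axis) between long and medium taproots over the 3 pairs and in each cultivation, with 3 libraries per group (left bars) and with near-identical libraries summed into units (right bars). Red parts are genes higher and blue parts genes lower in long taproots. The counts fall to 0 over the 3 pairs, 2 in containers, 4 in transplanted seedlings and 108 in rhizotrons when libraries were summed.

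The genes named next were the 10 with the largest positive and the 10 with the largest negative log2 fold change over the 3 pairs, among the 186 higher and 215 lower genes that passed the test with an average log2 CPM (counts relative to library size) of at least 3 and the same direction in all cultivations. No gene names are paired with their identifiers in the sources used here. All 20 had an unadjusted p under 0.05 in the summed data, which hold the same reads that selected them, with adjusted p between 0.335 and 0.739. For 9 of the 20 the long and the medium libraries did not overlap in any cultivation, and 14 of the 20 passed the test whichever of the 18 libraries was left out. Where a library has a near-identical partner, leaving it out keeps the partner. For such libraries, here and below, these fits cannot show whether a call rests on them.

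MSTRG.6986 was among the most abundant of the genes that rose, with an average of 72.9 ± 35.8 TPM in long and 24.4 ± 7.18 TPM in medium taproots (SD, n = 9 each). In containers it had 97.4, 98.7 and 102 TPM in long libraries, against 19.4, 28.2 and 42.1 TPM in medium libraries. In transplanted seedlings it had 76.5, 47.7 and 129 TPM in long and 19.3, 23.0 and 24.3 TPM in medium libraries, and in rhizotrons 35.9, 33.4 and 35.3 TPM in long and 21.4, 21.1 and 20.9 TPM in medium libraries. Long libraries were above all medium libraries in each cultivation, by least in rhizotrons. The log2 fold change was 1.48 ± 0.22 (adjusted p = 0.00178, and 0.529 summed).

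MSTRG.18543 rose by 1.96 ± 0.25 on the log2 scale (adjusted p = 0.000824, and 0.335 summed). It had 66.1, 71.9 and 70.7 TPM in long and 13.6, 7.73 and 17.1 TPM in medium container libraries, and 11.9, 14.0 and 13.0 TPM in long and 1.16, 2.33 and 2.11 TPM in medium rhizotron libraries. In transplanted seedlings it had 9.53, 22.7 and 12.7 TPM in long and 7.74, 8.47 and 8.72 TPM in medium libraries. It was thus higher in every long library, but to a different extent, and the dependence on cultivation passed the test (adjusted p = 0.0151). In rhizotrons it also passed with near-identical libraries summed (adjusted p = 0.0491). MSTRG.18639 was the third of the genes that rose with no overlap in any cultivation (log2 fold change 1.40 ± 0.25, adjusted p = 0.00609), at 9.02 ± 8.47 TPM in long and 3.11 ± 3.8 TPM in medium taproots (SD, n = 9 each).

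The gene with the largest positive log2 fold change, MSTRG.23547 (2.76 ± 0.70, adjusted p = 0.04), was carried by few libraries. It had 30.6, 34.2 and 34.6 TPM in long container libraries, against 0.15, 16.6 and 6.94 TPM in medium container libraries, whereas replicate 1 of long transplanted taproots had 19.6 TPM and the other 2 had 0.75 and 0.49 TPM. Medium transplanted libraries had 0.35, 0.48 and 0.63 TPM, so that the difference in transplanted seedlings rested on that 1 library, and the gene passed in only 4 of the 18 fits without a library (adjusted p up to 0.0786, without replicate 2 of medium transplanted taproots). MSTRG.13453 had the same 2 features, with 32.2, 29.7 and 29.95 TPM in long and 2.6, 6.01 and 9.14 TPM in medium container libraries, and 34.6, 4.51 and 2.78 TPM in long and 3.45, 3.12 and 3.09 TPM in medium transplanted libraries. In rhizotrons both genes were apart. MSTRG.23547 had 0.80, 1.34 and 1.41 TPM in long and 0.09, 0.20 and 0.14 TPM in medium libraries there (log2 fold change 2.79 ± 1.70, adjusted p = 0.320). MSTRG.13453 had 5.23, 4.96 and 5.37 TPM in long and 1.52, 1.64 and 1.51 TPM in medium libraries, and over the 3 pairs its log2 fold change of 2.07 ± 0.35 (adjusted p = 0.00511) passed in all 18 fits without a library.

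The other 5 genes that rose had log2 fold changes between 1.44 and 1.82. MSTRG.32183 (1.77 ± 0.34), MSTRG.18448 (1.51 ± 0.31) and MSTRG.24568 (1.44 ± 0.30) passed in all 18 fits without a library. MSTRG.28423 (1.82 ± 0.42, adjusted p = 0.0262) did not pass without replicate 3 of medium transplanted taproots (adjusted p = 0.0518), and MSTRG.23176 (1.62 ± 0.40, adjusted p = 0.0336) passed in 8 of the 18 fits. Among these 5, 1 library again stood out in transplanted seedlings, where MSTRG.23176 had 76.6 TPM in replicate 2 and 12.1 and 20.3 TPM in the other long libraries, and MSTRG.18448 had 52.2 TPM in replicate 3 and 21.9 and 5.27 TPM in the others.

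Among the genes that fell, MSTRG.4226 was the only one of the 20 that passed the test in each cultivation alone (adjusted p = 0.0173 in containers, 0.0259 in transplanted seedlings and 0.000208 in rhizotrons). After summing of near-identical libraries it passed in none of them (adjusted p = 1.00, 0.927 and 0.102 in the same order). It had 93.3, 97.8 and 96.5 TPM in long and 137 to 316 TPM in medium container libraries, 95.6, 159.8 and 68.4 TPM in long and 206 to 242 TPM in medium transplanted libraries, and 31.7, 33.2 and 32.4 TPM in long and 110 to 131 TPM in medium rhizotron libraries. The groups were apart in every cultivation, and the log2 fold change over the 3 pairs was -1.35 ± 0.17 (adjusted p = 0.000824, and 0.370 summed).

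MSTRG.29108 was the most abundant of the 20 genes, at 212 ± 120 TPM in long and 547 ± 238 TPM in medium taproots (SD, n = 9 each). It had 324.0, 334.4 and 329.4 TPM in long and 1088, 441.0 and 688.0 TPM in medium container libraries, 74.1, 358.8 and 158.9 TPM in long and 527.7, 578.7 and 577.7 TPM in medium transplanted libraries, and 107, 111 and 111 TPM in long and 322, 368 and 337 TPM in medium rhizotron libraries. The log2 fold change was -1.46 ± 0.23 (adjusted p = 0.00308), with values of -1.33, -1.42 and -1.65 in the 3 cultivations, in the order containers, transplanted and rhizotrons. MSTRG.26646 had values of -1.05, -1.39 and -1.03 in the same order, and averaged 73.0 ± 27.9 TPM in long and 167 ± 71.8 TPM in medium taproots (adjusted p = 0.00178). Neither gene overlapped between long and medium libraries in any cultivation.

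The largest negative log2 fold changes were those of MSTRG.17329 (-2.49 ± 0.43, adjusted p = 0.00566) and MSTRG.17515 (-2.04 ± 0.40, adjusted p = 0.0105). MSTRG.17329 had 55.2, 55.8 and 55.5 TPM in long and 281.5, 58.7 and 133.5 TPM in medium container libraries, and 23.4, 25.2 and 25.3 TPM in long and 118, 115 and 115 TPM in medium rhizotron libraries. In transplanted seedlings it had 15.6, 26.2 and 0.34 TPM in long and 176, 178 and 176 TPM in medium libraries. MSTRG.17515 followed the same libraries, with its lowest long value (0.75 TPM) in the same transplanted replicate 3 and its highest medium value (312 TPM) in the same container replicate 1. Both passed in all 18 fits without a library.

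The other 5 genes that fell had log2 fold changes between -1.55 and -1.06. MSTRG.24986 (-1.55 ± 0.29) and MSTRG.2771 (-1.20 ± 0.21) had values of at least 1 in size in each cultivation and passed in all 18 fits without a library. MSTRG.9914 (-1.46 ± 0.35), MSTRG.24164 (-1.08 ± 0.26) and MSTRG.15449 (-1.06 ± 0.26) passed in 8, 9 and 8 of the 18 fits without a library. They differed most in rhizotrons, where their log2 fold changes were -3.10 ± 0.28, -2.12 ± 0.35 and -2.07 ± 0.30. In containers the values were -1.15 ± 0.26, -0.73 ± 0.33 and -0.92 ± 0.29, and MSTRG.9914 passed edgeR's test there (adjusted p = 0.0195). In transplanted seedlings the same 3 genes had values of -0.10 ± 0.27, -0.45 ± 0.34 and -0.07 ± 0.32, and the dependence on cultivation passed for each (adjusted p = 0.00031, 0.0455 and 0.0145).

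**Figure D4:**
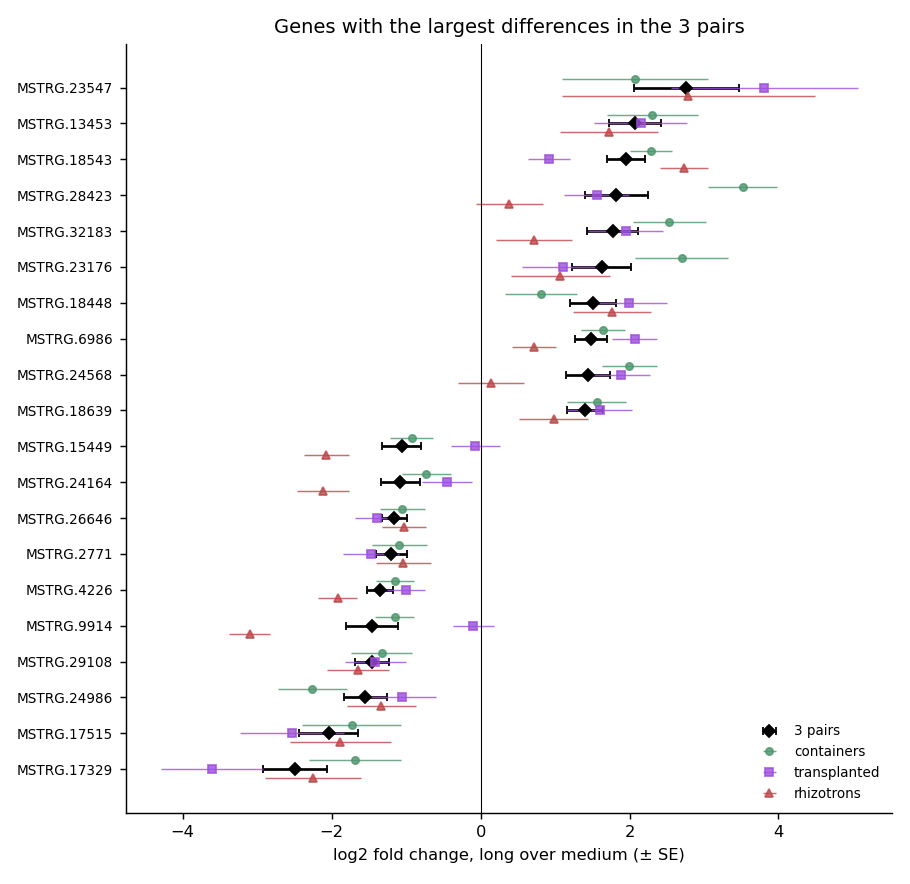
Log2 fold change of long over medium taproots (x axis, ± SE) of the 10 genes that rose most and the 10 that fell most over the 3 pairs. Black diamonds are the 3 pairs together, and coloured points are containers, transplanted seedlings and rhizotrons. All values lie on the same side of 0 for each gene, as the choice of genes required, and MSTRG.9914 spreads from -0.10 in transplanted seedlings to -3.10 in rhizotrons.

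Each cultivation was then tested as its own contrast in a model of all 18 libraries. Long and medium taproots differed in 1164 genes (4.67% of those tested) in containers, 1866 (7.49%) in transplanted seedlings and 3659 (14.7%) in rhizotrons. In containers 751 were higher and 413 lower in long taproots. The split was 922 and 944 in transplanted seedlings and 1819 and 1840 in rhizotrons. With limma on log2(TPM + 1) it was 1194 higher and 274 lower in containers and 703 higher and 1402 lower in transplanted seedlings, an alternative that changes both the test and the scale. With edgeR's test and another scaling the split was 847 and 327 (library size without TMM) or 756 and 412 (DESeq2 size factors) in containers, and 924 and 926 or 902 and 953 in transplanted seedlings. With near-identical libraries summed, 2, 4 and 108 genes passed, in the order containers, transplanted and rhizotrons, and 1012, 1320 and 3123 of 26170 genes had an unadjusted p under 0.05. Leaving out 1 library gave 404 to 2093 genes in containers, 543 to 3844 in transplanted seedlings and 2230 to 4494 in rhizotrons. The lowest counts followed the omission of replicate 2 of long container taproots, replicate 3 of medium transplanted taproots and replicate 2 of medium rhizotron taproots, each of them from a near-identical pair.

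The group means of the 3 cultivations share no library, but the contrasts come from a single model in which all 18 libraries give the spread of a gene. The tests are therefore not independent, and their genes are set side by side only as a description. Containers and transplanted seedlings had 209 genes in common, 17.96% of the container genes and 11.2% of the transplanted genes, and 145 of them (69.4%) had the same direction, while the share over all genes tested was 46.4%. Containers and rhizotrons had 355 in common, 30.5% and 9.70% of their genes, with the same direction in 173 (48.7%, and 51.5% over all genes). Transplanted seedlings and rhizotrons had 554 in common, 29.7% and 15.1% of their genes, with the same direction in 203 (36.6%, and 47.7% over all genes). Of the 92 genes that passed in all 3 cultivations, 11 were higher in long taproots in each, 11 were lower in each and 70 had mixed directions. Across the 24904 genes, Spearman's rho between the log2 fold changes of 2 cultivations was 0.011 for containers and transplanted seedlings, 0.035 for containers and rhizotrons and -0.087 for transplanted seedlings and rhizotrons. These are descriptions across genes, which are not independent replicates.

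In containers, MSTRG.14503 had 208, 214 and 219 TPM in long and 0.92, 38.3 and 6.27 TPM in medium libraries (log2 fold change 3.78 ± 0.75, adjusted p = 0.00931), and MSTRG.28423, named above, had 26.8, 34.8 and 32.3 TPM in long and 0.56, 5.96 and 1.87 TPM in medium libraries (3.52 ± 0.46, adjusted p = 0.000483). MSTRG.29049 fell, with 2.66, 2.78 and 2.56 TPM in long and 16.4, 15.7 and 22.04 TPM in medium libraries (-2.86 ± 0.23, adjusted p = 1.12e-05). It had the opposite direction in rhizotrons, with 11.7, 13.9 and 14.1 TPM in long and 7.43, 8.35 and 7.58 TPM in medium libraries. MSTRG.395 also fell in containers (-2.92 ± 0.67, adjusted p = 0.0199) and was on the other side in rhizotrons, with 45.7, 34.9 and 38.2 TPM in long and 0.85, 0.56 and 0.74 TPM in medium libraries. None of these 4 genes passed in containers with near-identical libraries summed (adjusted p = 1.00 for MSTRG.14503, 0.480 for MSTRG.28423, 0.306 for MSTRG.29049 and 1.00 for MSTRG.395).

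In transplanted seedlings, MSTRG.29206 fell to 0.17, 0.09 and 2.21 TPM in long libraries, against 22.3, 22.2 and 21.6 TPM in medium libraries (-4.56 ± 0.66, adjusted p = 0.00116), and MSTRG.17329, described above, was the other gene that fell most there. MSTRG.711 had 11.8, 3.10 and 30.6 TPM in long and 1.1, 2.14 and 1.17 TPM in medium libraries (3.56 ± 0.90, adjusted p = 0.0262). MSTRG.12711 passed (adjusted p = 0.0280) on 402 TPM in replicate 1 of long taproots, while the other long libraries had 0.70 and 1.61 TPM and the medium libraries 0.07, 0.25 and 0.32 TPM, so that its size belongs to 1 library. None of these 3 genes passed in transplanted seedlings after summing (adjusted p = 0.646 for MSTRG.29206, 0.927 for MSTRG.711 and 0.927 for MSTRG.12711).

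In rhizotrons, MSTRG.28328 had 28.8, 37.6 and 36.9 TPM in long libraries and a count of 0 in all medium libraries, and with 3 counts put in place of each 0 the long taproots were at least 270-fold higher. It was one of the genes that passed with near-identical libraries summed (adjusted p = 0.0147), and it had 0 counts in all 6 long and medium libraries of transplanted seedlings. Its level also differed within groups of short taproots, with 65.7, 68.6 and 0 TPM in rhizotrons and 0.07, 0 and 24.2 TPM in containers. MSTRG.10879 had 163, 175 and 176 TPM in long and 2.43, 3.54 and 2.83 TPM in medium libraries (5.85 ± 0.62, adjusted p = 2.53e-05, and 0.0414 summed). MSTRG.4857 had 0.53, 0.77 and 0.51 TPM in long and 27.9, 28.0 and 27.8 TPM in medium libraries (-5.54 ± 1.04, adjusted p = 0.00220), and MSTRG.30717 had 2.31, 1.39 and 2.20 TPM in long and 84.1, 67.8 and 68.1 TPM in medium libraries (-5.23 ± 0.90, adjusted p = 0.00120). MSTRG.4857 and MSTRG.30717 missed the threshold with libraries summed (adjusted p = 0.198 and 0.159).

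The difference between long and medium taproots depended on the type of cultivation for 4031 genes (16.2% of those tested). Of the 788 genes of the 3 pairs, 114 (14.5%) were among them, near the share over all genes. With near-identical libraries summed 14 genes passed, all 14 of them among the 4031. The 3 genes with the smallest p among those with an average log2 CPM of at least 3 were among these 14. MSTRG.7470 had 8.46, 8.06 and 7.51 TPM in long and 46.4, 45.4 and 50.6 TPM in medium transplanted libraries (log2 fold change -2.47 ± 0.11), against 9.06, 13.8 and 12.4 TPM in long and 5.04, 7.11 and 6.90 TPM in medium rhizotron libraries (0.86 ± 0.11). In containers it had 5.26 to 6.30 TPM in long and 4.91 to 6.19 TPM in medium libraries. The adjusted p for the dependence was 2.56e-08, and 0.0139 with libraries summed.

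MSTRG.9415 had the reverse order of cultivations. It was higher in long transplanted taproots, with 58.7, 42.5 and 35.1 TPM, against 11.3, 11.5 and 11.6 TPM in medium ones (2.07 ± 0.17), and lower in long rhizotron taproots, with 53.2, 51.9 and 49.98 TPM, against 191, 198 and 200.3 TPM in medium ones (-1.93 ± 0.16). The adjusted p for the dependence was 4.96e-07, and 0.0281 summed. MSTRG.22503 likewise had log2 fold changes of 0.37 ± 0.12 in containers, 0.79 ± 0.11 in transplanted seedlings and -1.82 ± 0.12 in rhizotrons (adjusted p = 5.27e-07, and 0.0281 summed).

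**Figure D5:**
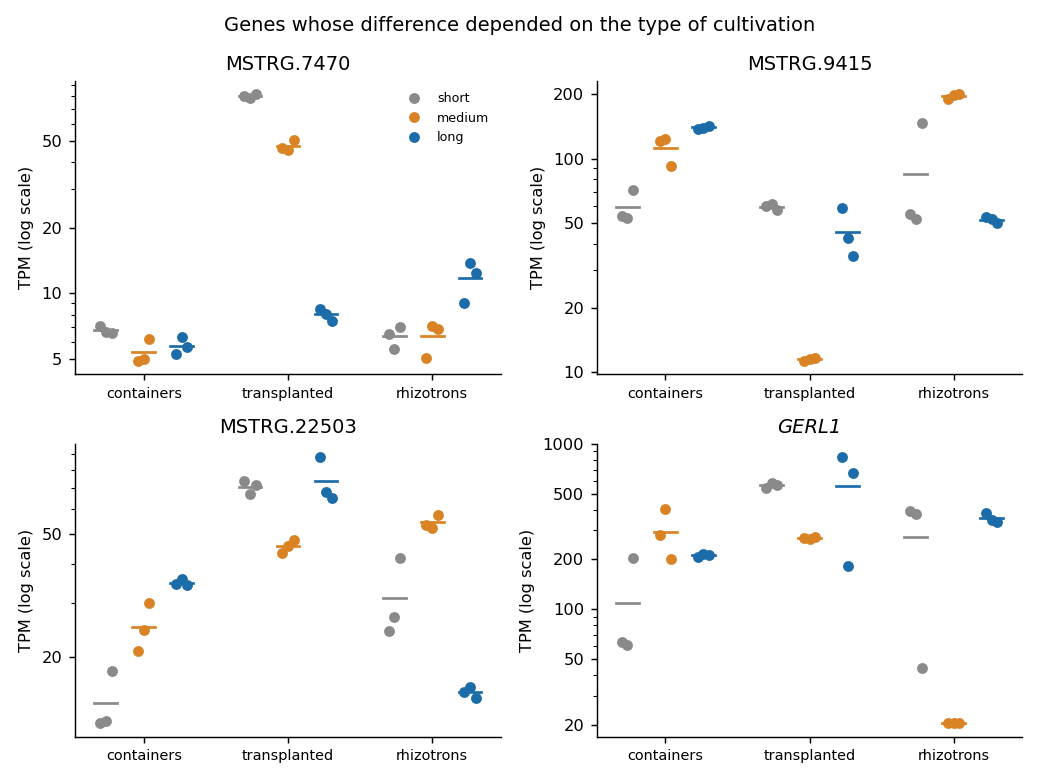
Levels (y axis, TPM on a log scale) of MSTRG.7470, MSTRG.9415, MSTRG.22503 and *GERL1* in short (grey), medium (orange) and long (blue) taproots of each cultivation. Points are libraries and lines are means of 3 libraries. Long and medium taproots change places between transplanted seedlings and rhizotrons for MSTRG.7470, MSTRG.9415 and MSTRG.22503.

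Short taproots of the same morphology and cultivations (K_kr_NN, 3 libraries per group) were set beside these values, without a test since the length classes share the medium libraries. Some named genes ran in order of length in a cultivation and others did not, and these were not counted. *PIN2* averaged 32.9 TPM in short, 51.0 TPM in medium and 58.5 TPM in long transplanted taproots. In rhizotrons it averaged 29.0, 35.4 and 53.4 TPM, and in containers 35.3, 32.8 and 32.9 TPM, in the same order. *PCC13* rose with length in containers (1.40, 14.5 and 41.0 TPM) and fell with it in transplanted seedlings (29.6, 10.2 and 6.20 TPM). In containers *G3OX* averaged 8.34, 6.92 and 2.39 TPM. *G3OX* averaged 6.39 TPM in short, 7.58 TPM in medium and 3.71 TPM in long rhizotron taproots, and 0.75 TPM in short, 1.33 TPM in medium and 0.80 TPM in long transplanted taproots. *GERL1* averaged 562 TPM in short, 270.3 TPM in medium and 559 TPM in long transplanted taproots. MSTRG.4226 averaged 159 TPM in short, 229 TPM in medium and 108 TPM in long transplanted taproots, and 118 TPM in short, 122 TPM in medium and 32.5 TPM in long rhizotron taproots. In rhizotrons, replicate 3 of short taproots stood apart from the other 2 for several of these genes, as with *GERL1* at 44.0 TPM, against 392 and 379 TPM.

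Genes that mark other root parts were described next, in lists taken from libraries outside the comparison (adjusted p under 0.05 and at least 4-fold in size). Of the 459 genes lower in elongation zones than in meristematic zones of dying taproots, 338 were tested here, and 34 were higher and 1 was lower in long taproots, 10.4% of them beside 3.16% of all genes tested. Their median log2 fold change was 0.56 over the 3 pairs, beside 0.01 for all genes, and 0.43 in containers (30 higher and 7 lower), 0.62 in transplanted seedlings (37 higher and 5 lower) and 0.47 in rhizotrons (66 higher and 21 lower). Over all genes tested, 751 were higher and 413 lower in containers (4.67%). The numbers over all genes were 922 and 944 in transplanted seedlings (7.49%), and 1819 and 1840 in rhizotrons (14.7%). The summed level of the list was 5470 to 11988 TPM in the long libraries (median 8099) and 5692 to 8847 TPM in the medium libraries (median 6678), so that the groups overlapped. Several genes named above belong to this list. MSTRG.18543 and MSTRG.28423, among the 10 genes that rose most, are members, as is MSTRG.10879, which was higher in long rhizotron taproots. MSTRG.12711 is also a member, but the size of its difference in transplanted seedlings belongs to 1 long library. *G3OX* was lower over the 3 pairs, against the median of the list. *ACO5*, MSTRG.4857 and MSTRG.22503 are the other members, and MSTRG.4857 and MSTRG.22503 were lower in long rhizotron taproots. MSTRG.22503 was also higher in long transplanted taproots. MSTRG.4857 had 0.04, 14.8 and 2.72 TPM in long and 0.24, 0.08 and 0.11 TPM in medium transplanted libraries, so that these groups overlapped. Of the 251 genes higher in elongation zones, 143 were tested, of which 0 were higher and 2 lower in long taproots (1.40%), with a median log2 fold change of -0.27. The median was -0.13 in containers (6 higher and 5 lower), 0.04 in transplanted seedlings (3 higher and 5 lower) and -0.74 in rhizotrons (9 higher and 32 lower). Their summed level was 193 to 569 TPM in long (median 383) and 307 to 674.5 TPM in medium libraries (median 462). A group of dying transplanted taproots whose code and description conflict entered these lists. Without it, which was also tried only once the values were known, the medians were 0.56 for 400 genes lower in elongation zones (45 higher and 1 lower in long taproots) and -0.35 for 139 genes higher in elongation zones (3 higher and 2 lower). The list of genes lower in elongation zones had a positive median in each cultivation, whereas the list of genes higher there was shifted chiefly in rhizotrons. The part of root zones in the differences of single genes was not tested.

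For lateral roots against taproots of Dataset 1, 1450 of 2102 genes higher in lateral roots were tested, and 52 were higher and 47 lower in long taproots (6.83%), with a median log2 fold change of -0.05. Of the 890 genes lower in lateral roots, 821 were tested, and 24 were higher and 21 lower (5.48%), with a median of 0.07. Both shares stand beside 3.16% of all genes tested. The genes higher in lateral roots split into 109 higher and 24 lower in long taproots in containers, where more of all genes were also higher than lower, 71 and 86 in transplanted seedlings, and 137 and 213 in rhizotrons (medians 0.07, -0.01 and -0.13). The genes lower in lateral roots split into 27 higher and 50 lower in containers, 77 and 43 in transplanted seedlings, and 110 and 124 in rhizotrons (medians -0.15, 0.28 and 0.03). Over all genes tested, 751 were higher and 413 lower in containers (4.67%). The numbers over all genes were 922 and 944 in transplanted seedlings (7.49%), and 1819 and 1840 in rhizotrons (14.7%). The side with more calls differed between cultivations in both lists. For the genes higher in lateral roots it was the same side as over all genes in each cultivation. The comparison of dying and normal taproots of Dataset 1 yielded only 1 gene past the limits, which did not pass here. Replicates 2 and 3 of its dying container group were near-identical to libraries of normal long rhizotron taproots. The short list can therefore not be read as a result about dying roots.

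The same comparison of lengths was made in 3 sets of other libraries, none of which shares a library with the 18. In the elongation zones of normal taproots in Dataset 2 (containers and rhizotrons), 1295 of 24818 genes (5.22%) differed between long and medium roots, 726 higher and 569 lower in long roots. Of the 788 genes, 751 were tested there, 678 (90.3%) had the same direction, beside 65.5% of all genes, and 166 (22.1%) passed, all 166 in the same direction. Examples are MSTRG.6986 (log2 fold change 1.19, adjusted p = 0.00396), MSTRG.18448 (1.45, adjusted p = 0.0028) and MSTRG.23176 (1.12, adjusted p = 0.024) among the genes that rose, and MSTRG.2771 (-0.74, adjusted p = 0.0266) and MSTRG.15449 (-1.04, adjusted p = 0.00852) among those that fell. The labels do not say whether zones were taken from the same roots. With near-identical libraries summed, 0 genes passed in the elongation zones (979 at an unadjusted p under 0.05), and DESeq2 gave 2734 with all libraries.

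In lateral roots of Dataset 2 (containers and rhizotrons), where the length class is that given in the sample code, 5120 of 24956 genes (20.5%) differed. Of the 744 of the 788 genes tested there, 495 (66.5%) had the same direction, beside 59.0% of all genes, and 256 (34.4%) passed, 205 of them in the same direction. MSTRG.4226 was lower in long roots (-0.83, adjusted p = 0.000142), and *GERL1* was higher (1.49, adjusted p = 0.00634). *G3OX*, by contrast, was higher in lateral roots of the long class (0.68, adjusted p = 0.0315). With libraries summed, 0 genes passed (2602 at an unadjusted p under 0.05), and DESeq2 gave 6691 with all libraries.

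In the 8-week taproots of Dataset 1 (containers and rhizotrons), 5 of 23390 genes (0.0214%) differed, none of them among the 788, and 1624 had an unadjusted p under 0.05. DESeq2 gave 164 genes, and 0 passed with near-identical libraries summed (1107 at an unadjusted p under 0.05). Of the 720 of the 788 genes tested there, 543 (75.4%) had the same direction, beside 59.8% of all genes. *G3OX* had a log2 fold change of -0.82 (adjusted p = 0.862) and *ACO5* of 1.44 (adjusted p = 0.159) in these libraries. Replicates 2 and 3 of the long rhizotron group of Dataset 1 were near-identical to libraries of dying container taproots, in 3 pairs of libraries with distances of 0.0292 to 0.0409. Without the rhizotron pair, which was tried only once the values were known, 505 of 22027 genes (2.29%) differed in the container taproots of Dataset 1. The direction was that of the 3 pairs for 413 of the 683 genes tested (60.5%). The share over all genes was not computed for this comparison, so that 60.5% cannot be read as agreement.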

How the data were processed

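RNA-seq was analysed for 18 libraries of normal taproot meristematic zones, and other libraries of the series served for side comparisons. Groups were taken from the sample codes. The authors assembled transcripts with StringTie and estimated expression with RSEM on Bowtie2 alignments, and they deposited expected counts, which are neither normalized nor filtered. The TPM values were also deposited by the authors and were used for levels. Expected counts were rounded, low genes were removed with filterByExpr (minimum count of 10), and TMM factors were applied. Differences were tested with edgeR 4.0.16 in R 4.3.3 (quasi-likelihood test, type of cultivation as covariate, Benjamini-Hochberg adjustment, threshold of 0.05). Each cultivation was tested as a contrast of group means, and the dependence on cultivation with both interaction terms. The SE was approximated from the log2 fold change and its F statistic.

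Named genes were the 9 RT-qPCR genes with *UBQ* and *EF*, the 10 genes that rose and the 10 that fell most over the 3 pairs, for each cultivation the 2 that rose and the 2 that fell most without overlap, and the 3 with the smallest p for the dependence, all at an average log2 CPM of at least 3 and an adjusted p under 0.05 apart from the RT-qPCR genes. The genes and lists were chosen with earlier results of these data known. Results were also computed with DESeq2 1.42.0, with limma 3.58.1 (log2 of TPM + 1), with other scalings and filters, with replicate number as a block, in a single fit to all groups of Dataset 2, with near-identical libraries summed, and without each pair or library. The fits were tested on simulated counts. The simulated libraries were independent, with the same spread for a gene in every group. They cannot show how the fits perform with near-identical libraries. Python 3.11.15 with pandas 2.3.3 and matplotlib 3.10.9 was used for summaries and figures. The labels of a Dataset 1 group and of a transplanted group with dying roots conflict with their descriptions, and only the code was used. Gene names and positions for the remaining identifiers were not analysed here.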

Additional observations from a re-analysis of the deposited data

Results flagged for a closer look

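Groups of 3 libraries are too small for a test of single outlying libraries. Of the 44 genes named, 23 had a difference between long and medium taproots that depended on the type of cultivation (edgeR's quasi-likelihood test of both interaction terms, adjusted over all genes tested), and 3 of the 23 also passed with near-identical libraries summed, namely MSTRG.7470, MSTRG.9415 and MSTRG.22503. For the other 20 the adjusted p was then 0.0998 to 0.839.

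Among the RT-qPCR genes the adjusted p was 0.0211 for *CERD*, 0.0379 for *WRKY*, 0.0321 for *PIN2*, 0.000132 for *GERL1*, 0.00624 for *ACO1* and 0.0141 for *PCC13*. Among the genes with the largest differences over the 3 pairs it was 0.0151 for MSTRG.18543, 0.00834 for MSTRG.28423, 0.00031 for MSTRG.9914, 0.0455 for MSTRG.24164 and 0.0145 for MSTRG.15449, all of which had the same direction in each cultivation. Among the genes with the largest differences in 1 cultivation it was 0.0121 for MSTRG.14503, 0.000165 for MSTRG.395 and 1.62e-05 for MSTRG.29049 (containers), 0.00793 for MSTRG.711 and 0.00145 for MSTRG.29206 (transplanted), and 7.5e-05 for MSTRG.28328, 0.000123 for MSTRG.10879, 0.0011 for MSTRG.4857 and 0.00243 for MSTRG.30717 (rhizotrons). It was 2.56e-08 for MSTRG.7470, 4.96e-07 for MSTRG.9415 and 5.27e-07 for MSTRG.22503.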

How the results depend on the processing

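Summing near-identical libraries at the limit of 0.05 or 0.06 left 0 genes over the 3 pairs, 2 in containers, 4 in transplanted seedlings, 108 in rhizotrons and 14 for the dependence on cultivation. At a limit of 0.04 (14 units in place of 12) it left 32, 105, 112, 604 and 588 genes in the same order. It left 0 genes in the 8-week taproots of Dataset 1, 0 in elongation zones and 0 in lateral roots. DESeq2 called more genes, 1830 over the 3 pairs, 2034 in containers and 3071 in transplanted seedlings, and 164 in Dataset 1 and 2734 in elongation zones. Dataset 1 gave 505 genes without its rhizotron pair, an alternative added after the data were seen. A single fit to all groups of Dataset 2 gave 3175, 1860 and 3768 genes and 6513 for the dependence. A fold change of at least 2 kept 256 genes over the 3 pairs, 598 in containers, 974 in transplanted seedlings and 1998 in rhizotrons. The 3 pairs gave 1682 genes without the transplanted pair and 498 without the rhizotron pair. The cause of these differences between fits was not tested.

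Leaving out 1 library gave 464 to 1323 genes over the 3 pairs, 404 to 2093 in containers, 543 to 3844 in transplanted seedlings, 2230 to 4494 in rhizotrons and 2792 to 5509 for the dependence. Over the 3 pairs the count was 480, 502 and 500 without replicates 1, 2 and 3 of long container taproots, 521 and 519 without replicates 2 and 3 of medium transplanted taproots, and 511, 464 and 493 without replicates 1, 2 and 3 of medium rhizotron taproots. It was 1323 without replicate 2 of long transplanted taproots and 1238 without replicate 2 of medium container taproots.

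Deviations of the long and the medium library of the same replicate number were correlated at 0.040 to 0.216 in containers. The correlation was -0.055 to 0.034 in transplanted seedlings and 0.160 to 0.489 in rhizotrons. In both rhizotron groups replicates 2 and 3 were near-identical, so that the correlations there largely set replicate 1 apart from the others. Whether replicate number pairs libraries was not tested. A replicate block for the rhizotron libraries alone, added after the data were seen, gave 3493 genes in rhizotrons, 3313 of them among the 3659. With a replicate block, 615 genes passed over the 3 pairs, 2 in Dataset 1 and 508 in elongation zones, and 5 of the named values lost their call. No named gene that passed changed its direction under any alternative run. With libraries summed, 31 named values lost their call.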
